A study of Homo sapiens with 12 samples.

Results

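FLT3, KIT and the haematopoietic cytokine receptors are the surface proteins through which myeloid progenitors read growth factors. The genes described here are 9 of the 28125 named genes measured, taken by their symbol in the platform annotation: the receptor tyrosine kinases FLT3, KIT and CSF1R, the FLT3 ligand FLT3LG, and the cytokine receptor chains CSF2RA, CSF2RB, IL3RA, CSF3R and IL6R. Each had 1 row in the table, and all 9 were tested. The cells were SKM1, an established human myeloid leukaemia line, so the data describe 1 line. There were 4 groups of 3 arrays: cells given APR-246 and 5-azacytidine together (APR-AZA), cells given 5-azacytidine (AZA), cells given APR-246 (APR) and untreated cells (NT). Cells were exposed for 18 h to the IC50 of each drug, whose concentrations are not given in the labels. 5-Azacytidine is a nucleoside analogue that, once built into DNA, holds DNA methyltransferases in place and depletes them. APR-246 breaks down to a product that reacts with thiols, cysteines of p53 among them.

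FLT3, KIT and CSF1R belong to the same class of receptor tyrosine kinases. Each binds its ligand outside the cell, pairs with a second copy and phosphorylates itself. The cytokine receptors have no kinase of their own and signal through bound JAK kinases and STAT factors. CSF2RA and IL3RA are the ligand-binding alpha chains for GM-CSF and for interleukin 3, and both signal through the common beta chain CSF2RB. CSF3R binds G-CSF. IL6R binds interleukin 6 and signals through IL6ST, and its outer part can be cut from the cell by ADAM17. FLT3 and KIT are high in progenitors, and FLT3 is a common site of mutation in acute myeloid leukaemia.

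The promoters of 5 of these genes are shown because FLT3, KIT and IL6R fell with AZA, CSF2RA rose, and IL3RA, whose gene lies next to CSF2RA, did not pass the test. Each window runs from 250 bases before to 50 bases after a RefSeq start, in the direction of the gene, and capitals mark each CG dinucleotide, the site that DNA methyltransferases methylate. Coordinates are of build GRCh38.p14. FLT3 is at chr13:28100527-28100826 on the minus strand, KIT at chr4:54657707-54658006, IL6R at chr1:154405093-154405392, CSF2RA at chrX:1268564-1268863 and IL3RA at chrX:1336535-1336834, all of these last 4 on the plus strand.
FLT3: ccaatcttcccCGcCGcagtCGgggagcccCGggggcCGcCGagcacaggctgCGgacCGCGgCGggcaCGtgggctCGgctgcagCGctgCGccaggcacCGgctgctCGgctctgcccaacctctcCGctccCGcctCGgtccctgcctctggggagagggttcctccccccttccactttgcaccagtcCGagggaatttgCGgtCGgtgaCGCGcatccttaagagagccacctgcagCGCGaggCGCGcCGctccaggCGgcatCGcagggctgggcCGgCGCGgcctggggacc
KIT: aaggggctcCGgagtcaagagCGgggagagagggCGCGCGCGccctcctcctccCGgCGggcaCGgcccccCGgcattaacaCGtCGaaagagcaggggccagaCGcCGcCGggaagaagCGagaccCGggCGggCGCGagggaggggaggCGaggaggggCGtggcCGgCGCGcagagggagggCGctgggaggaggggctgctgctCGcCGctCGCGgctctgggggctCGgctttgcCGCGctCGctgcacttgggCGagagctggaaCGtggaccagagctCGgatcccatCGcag
IL6R: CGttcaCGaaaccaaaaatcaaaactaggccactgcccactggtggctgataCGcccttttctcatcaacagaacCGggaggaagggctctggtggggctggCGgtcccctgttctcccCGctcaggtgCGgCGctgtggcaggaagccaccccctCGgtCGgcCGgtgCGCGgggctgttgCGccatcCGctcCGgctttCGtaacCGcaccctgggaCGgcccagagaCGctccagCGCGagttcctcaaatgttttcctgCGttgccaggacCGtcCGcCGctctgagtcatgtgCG
CSF2RA: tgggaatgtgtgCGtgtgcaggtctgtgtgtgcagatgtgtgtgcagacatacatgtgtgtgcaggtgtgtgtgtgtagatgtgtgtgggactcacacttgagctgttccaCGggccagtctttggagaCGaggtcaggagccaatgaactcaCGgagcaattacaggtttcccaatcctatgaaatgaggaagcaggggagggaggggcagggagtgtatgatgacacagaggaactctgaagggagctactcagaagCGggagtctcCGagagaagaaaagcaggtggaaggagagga
IL3RA: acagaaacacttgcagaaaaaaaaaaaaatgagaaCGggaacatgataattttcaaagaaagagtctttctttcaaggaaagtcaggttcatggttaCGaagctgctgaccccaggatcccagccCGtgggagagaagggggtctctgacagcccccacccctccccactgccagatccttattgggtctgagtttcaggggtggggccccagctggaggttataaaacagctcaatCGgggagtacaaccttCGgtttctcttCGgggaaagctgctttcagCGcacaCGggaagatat

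The KIT window held 38 CG dinucleotides, the FLT3 window 34 and the IL6R window 27. Over all 34961 RefSeq windows of this length, 9.94%, 15.6% and 28.2% held at least as many. The CSF2RA window held 6 and the IL3RA window 8, against a median of 14 over all windows, and 66.4% and 60.8% of windows held at least as many. RefSeq windows were found for 8 of the 9 genes, all but CSF2RB. FLT3LG had 21 and 14 CG dinucleotides at its 2 starts, CSF1R 8 and 4, and CSF3R 9 and 3. Thus the 3 windows of the genes that fell were richer in CG than those of CSF2RA and IL3RA, which is a description of 5 genes with no test. The letters GGGCGG, a GC box, were found on either strand in 1 place in the KIT window and in none of the other 4 shown, and 45.0% of all windows hold them. A PU.1 sequence (GAGGAAGT, 2.59% of all windows) and a RUNX sequence (TGTGGT, 13.1%) were searched on both strands too and were in none of the 5. AACGG, a MYB sequence held by 19.7% of all windows, was in the IL3RA window once and in none of the other 4. No match overlapped another in the 5 windows, and a missing match says only that these letters are not in the window. DNA methylation was not measured.

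Within groups the correlation between arrays was 0.994 to 0.996 over all rows, and array medians ranged over 4.69 to 4.78 (log2 signal). Of the myeloid markers measured, LYZ, which encodes lysozyme, stood at 12.46 to 13.09 and MPO, myeloperoxidase, at 10.40 to 12.15 on all 12 arrays (log2 signal), while CD14 of mature monocytes stood at 3.16 to 3.75. In AZA against NT, 4 of 6 myeloid markers were called: ANPEP was higher, by 0.55, and MPO, LYZ and CD4 had log2 changes of -1.40, -0.48 and -0.36. Their part in the receptor results was not tested. Markers of T cells (0 of 3), B cells (0 of 2), megakaryocytes (0 of 3), erythroid cells (0 of 1) and fibroblasts (0 of 3) were not called by limma in AZA or in APR-AZA against NT. In APR-AZA against APR, 1 of 3 T cell markers, CD3E at 0.34 ± 0.10, and 1 of 3 fibroblast markers, COL1A2 at 0.39 ± 0.11, were called higher (log2, SE, limma adjusted p = 0.0293 and 0.0193), and their part in the receptor results of that comparison was not tested. The median change in that comparison was 0.02 over the T cell markers and 0.27 over the fibroblast markers. CD3E averaged 3.91 in APR-AZA and 3.57 in APR cells (log2 signal), below the array medians. COL1A2 averaged 5.14 and 4.75 in these groups. Of all genes, 20.9% were called in AZA against NT, 22.3% in APR-AZA against NT and 20.7% in APR-AZA against APR. Signals of different genes come from different probes and are not set against each other here.

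FLT3 fell with AZA, alone and with APR. Its log2 signal was 4.88, 5.13 and 4.93 in APR-AZA cells, 5.33, 4.82 and 4.87 in AZA cells, 6.16, 6.05 and 5.83 in APR cells, and 6.32, 6.32 and 6.54 in NT cells. All 6 arrays with AZA lay below all 6 without it, and the 3 APR arrays lay between those with AZA and those of NT. FLT3 was 2.66-fold lower in APR-AZA than in NT cells (-1.41 ± 0.14 on the log2 scale, SE, n = 3 in each group, limma adjusted p = 5.86e-06). In AZA cells it was 2.62-fold lower, at -1.39 ± 0.14 (limma adjusted p = 7.69e-06). The APR-AZA and AZA levels overlapped, with a difference of -0.02 ± 0.14 and a 95% interval of -0.32 to 0.27. Both levels lay near the array medians of 4.69 to 4.78, and low signals are compressed. The part of this in the difference was not tested. In bulk RNA, fewer cells with a transcript and less of it in each cell cannot be told apart.

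KIT, the receptor for stem cell factor, fell as well. Its log2 signal was 6.53, 6.72 and 6.33 in APR-AZA cells, 6.91, 7.14 and 6.60 in AZA cells, 8.46, 8.28 and 8.40 in APR cells, and 8.37, 8.66 and 8.68 in NT cells. The arrays with AZA lay below all arrays without it, and APR-AZA overlapped AZA as APR overlapped NT. KIT was 4.11-fold lower in APR-AZA than in NT cells, at -2.04 ± 0.14 (log2, SE, limma adjusted p = 2.89e-07). In AZA cells it was 3.21-fold lower than in NT cells, at -1.68 ± 0.14 (limma adjusted p = 1.77e-06). Ordered by log2 change from the lowest, KIT ranked 32 of 28125 genes in APR-AZA against NT and 61 in AZA against NT. Between APR-AZA and AZA cells KIT differed by -0.36 ± 0.14, with a 95% interval of -0.66 to -0.05 that was not adjusted for the number of genes, and this did not pass the test (limma adjusted p = 0.986).

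CSF1R, the receptor for the macrophage growth factor M-CSF, was not called in any comparison. Its log2 signal averaged 9.82 ± 0.06 in APR-AZA, 9.85 ± 0.07 in AZA, 9.97 ± 0.15 in APR and 10.05 ± 0.06 in NT cells (SD, n = 3). The APR-AZA and AZA arrays all lay below the NT arrays, yet the difference did not pass the test in either. It was -0.23 ± 0.09 in APR-AZA (limma adjusted p = 0.0804) and -0.19 ± 0.09 in AZA (limma adjusted p = 0.156), both against NT. With a trended and robust variance the value in APR-AZA was called (limma adjusted p = 0.0345, range 0.0345 to 0.221 over its alternatives). The 95% interval of the AZA value was -0.38 to -0.01, so a fall of the size seen in FLT3 or KIT lies outside it.

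FLT3LG, which encodes the ligand of FLT3, was called in 1 comparison, APR-AZA against APR. Its log2 signal was 6.03, 5.93 and 5.96 in APR-AZA cells, 5.97, 5.50 and 6.10 in AZA cells, 5.54, 5.52 and 5.42 in APR cells, and 5.67, 5.63 and 5.63 in NT cells. AZA replicate 2 lay below the NT arrays while the other 2 AZA arrays lay above them. The change in AZA was 0.21 ± 0.12 (log2, SE, limma adjusted p = 0.308), and without AZA replicate 2 it was 0.39 and called (limma adjusted p = 0.00561). In APR-AZA it was 0.33 ± 0.12 against NT (limma adjusted p = 0.0789), where all 3 arrays lay above NT, and with the 2 groups alone in the fit it was called (limma adjusted p = 0.0145, range 0.0145 to 0.193). Against APR cells FLT3LG was 1.40-fold higher in APR-AZA, at 0.48 ± 0.12 (limma adjusted p = 0.0128).

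**Figure D1:**
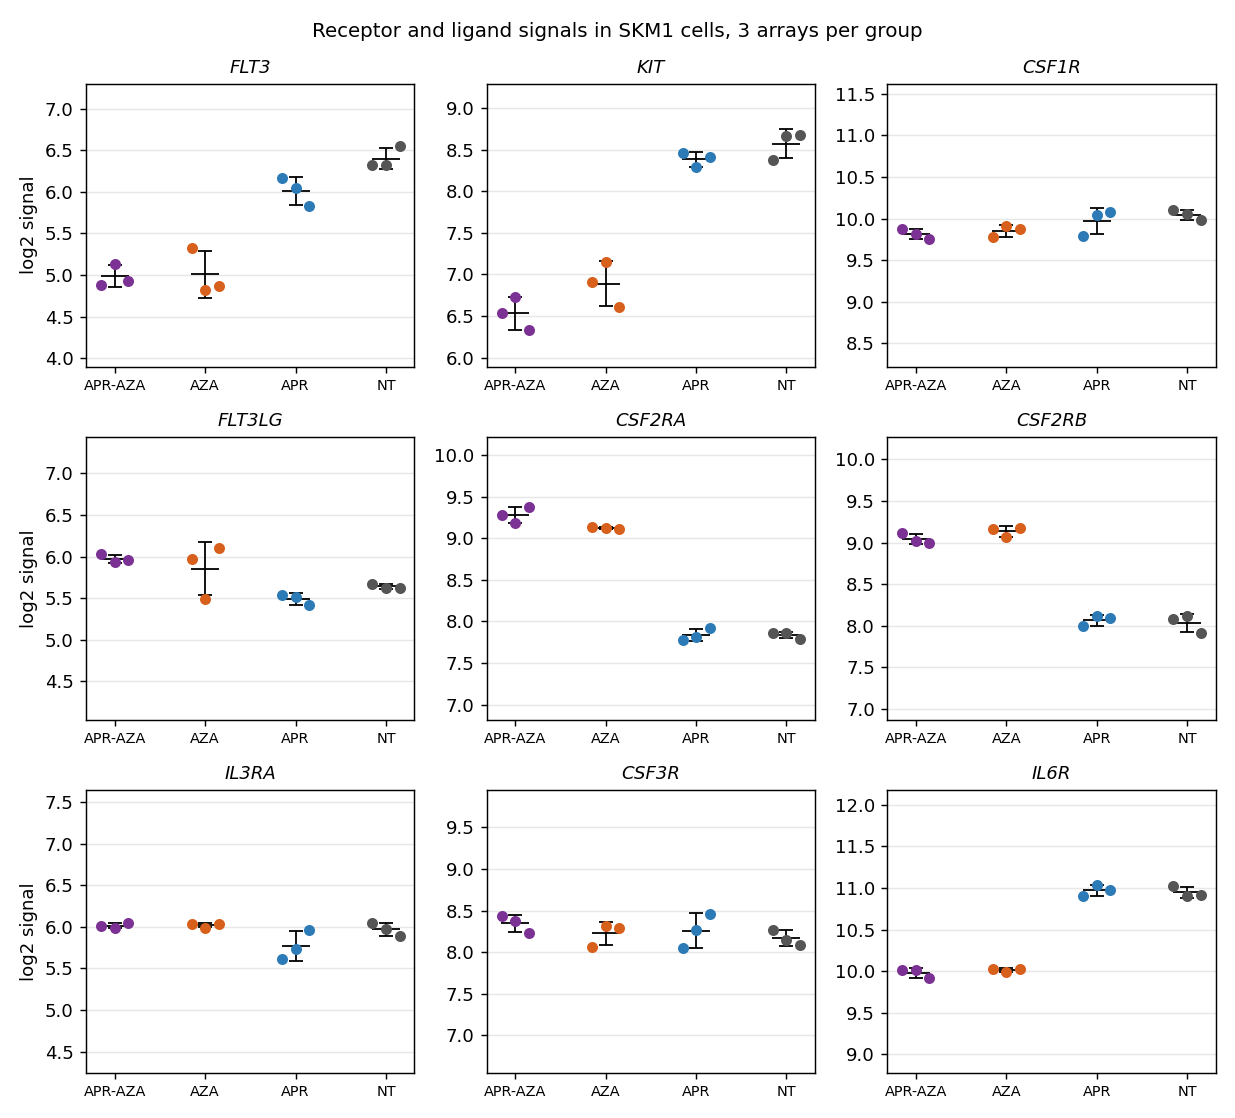
Log2 signal of the 9 genes on each array (points), with the group mean and SD over 3 arrays (bars), for APR-AZA, AZA, APR and NT cells from left to right. Each panel spans the same number of log2 units, and in FLT3, KIT, CSF2RA, CSF2RB and IL6R the 6 arrays with AZA are apart from the 6 without.

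Both chains of the GM-CSF receptor rose with AZA. CSF2RA had log2 signals of 9.28, 9.18 and 9.38 in APR-AZA cells, 9.13, 9.12 and 9.11 in AZA cells, 7.78, 7.81 and 7.92 in APR cells, and 7.86, 7.86 and 7.79 in NT cells. It was 2.71-fold higher in APR-AZA than in NT cells, at 1.44 ± 0.07 (log2, SE, limma adjusted p = 2.48e-08), and 2.44-fold higher in AZA, at 1.29 ± 0.07 (limma adjusted p = 7.66e-08). The 3 APR-AZA arrays lay above the 3 AZA arrays, by 0.15 ± 0.07 on average, a difference that did not pass the test (limma adjusted p = 0.986). APR and NT arrays overlapped.

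CSF2RB, the beta chain shared with the interleukin 3 receptor, had log2 signals of 9.12, 9.02 and 8.998 in APR-AZA cells, 9.17, 9.06 and 9.18 in AZA cells, 7.99, 8.12 and 8.10 in APR cells, and 8.09, 8.12 and 7.91 in NT cells. The groups with AZA overlapped each other and stood apart from the groups without it. CSF2RB was 2.01-fold higher in APR-AZA than in NT cells, at 1.01 ± 0.08 (log2, SE, limma adjusted p = 1.04e-06), and 2.14-fold higher in AZA, at 1.10 ± 0.08 (limma adjusted p = 5.48e-07).

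IL3RA, the alpha chain for interleukin 3 and a neighbour of CSF2RA on the X chromosome, was not called in any comparison. Its log2 signal was 6.01, 5.98 and 6.05 in APR-AZA cells, 6.04, 5.99 and 6.04 in AZA cells, 5.61, 5.73 and 5.97 in APR cells, and 6.05, 5.98 and 5.89 in NT cells. The change was 0.04 ± 0.09 in APR-AZA and 0.05 ± 0.09 in AZA, both against NT (log2, SE, limma adjusted p = 0.822 and 0.807). The 95% interval in AZA was -0.15 to 0.25, which does not reach the value of either GM-CSF receptor chain. APR arrays spread more widely, and APR stood at -0.20 ± 0.09 against NT (limma adjusted p = 0.9998). The 3 APR-AZA arrays lay above the 3 APR arrays, with a difference of 0.25 ± 0.09 (limma adjusted p = 0.0773). Without APR replicate 3 that difference was 0.34 and called (limma adjusted p = 0.0103), and with array weights it was called as well (limma adjusted p = 0.0311).

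CSF3R, the G-CSF receptor of the neutrophil lineage, stood at 8.35 ± 0.10 in APR-AZA, 8.23 ± 0.14 in AZA, 8.26 ± 0.21 in APR and 8.17 ± 0.10 in NT cells (log2 signal, SD, n = 3), and all 4 groups overlapped their neighbours in this order of levels. The difference from NT was 0.18 ± 0.11 in APR-AZA and 0.06 ± 0.11 in AZA (log2, SE, limma adjusted p = 0.331 and 0.812). The 95% interval in AZA was -0.18 to 0.30.

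IL6R fell with AZA. Its log2 signal was 10.02, 10.01 and 9.91 in APR-AZA cells, 10.03, 9.99 and 10.02 in AZA cells, 10.90, 11.04 and 10.97 in APR cells, and 11.02, 10.90 and 10.92 in NT cells. The gap between arrays with and without AZA was wider than the spread in any group. IL6R was 1.96-fold lower in APR-AZA than in NT cells, at -0.97 ± 0.07 (log2, SE, limma adjusted p = 5.81e-07), and 1.91-fold lower in AZA, at -0.94 ± 0.07 (limma adjusted p = 8.81e-07).

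In total 5 of the 9 genes were called in AZA against NT, where 20.9% of all genes were called. Of these 2 were higher (9.79% of all genes) and 3 lower (11.1%). The same counts, 2 higher and 3 lower, were found in APR-AZA against NT, where 22.3% of all genes were called, 10.4% higher and 11.9% lower. These comparisons share the NT arrays. The median log2 change of the 9 genes in AZA was 0.05, against 0.00 over all genes. The arrays of the 2 groups did not overlap for 7 of the 9 genes in APR-AZA against NT, where that held for 35.0% of all genes, and for 6 in AZA against NT, where it held for 32.1%. FLT3, KIT and CSF2RA were already known to change in these data when the 9 genes were chosen, so the counts describe the genes and are not read against the background.

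**Figure D2:**
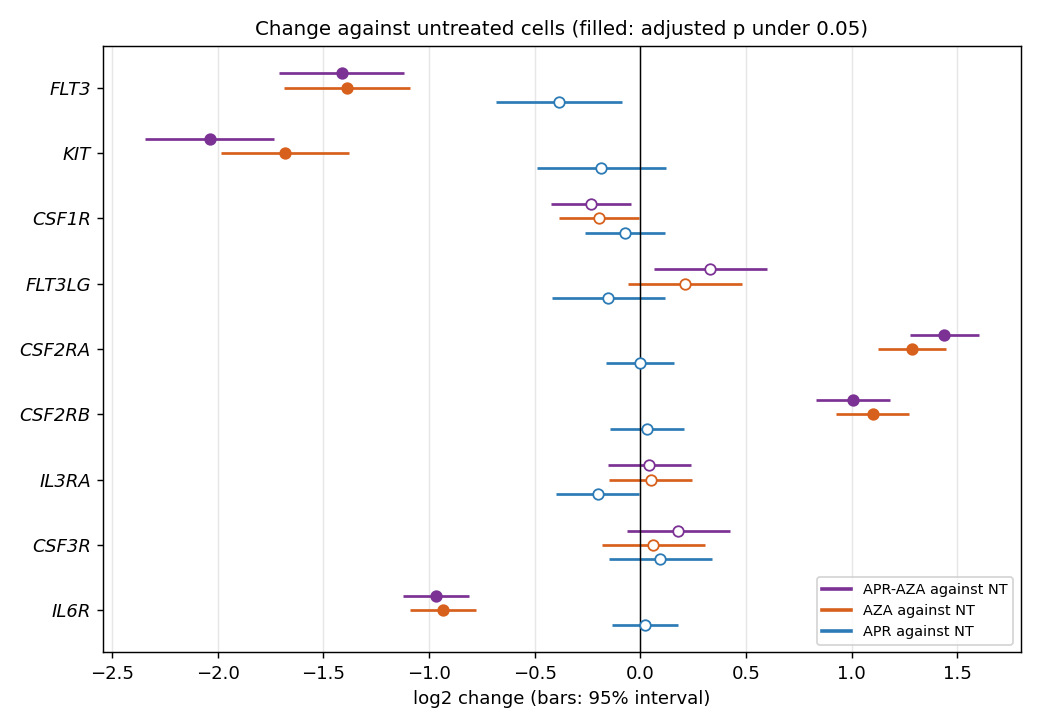
Log2 change against NT cells (points) with 95% intervals (bars) for APR-AZA, AZA and APR, from top to bottom within each gene. Filled points passed the test across all genes: FLT3, KIT and IL6R lie left of 0 and CSF2RA and CSF2RB right of 0 in APR-AZA and AZA, and no APR point is filled.

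APR alone called 0 of the 9 genes, where 0.00356% of all genes were called with limma and 1095 of 28125 had an unadjusted p under 0.05. FLT3 was the farthest from 0, at -0.38 ± 0.14 (log2, SE), with a 95% interval of -0.68 to -0.09, and its 3 APR arrays lay below its 3 NT arrays. Its unadjusted limma p was 0.0156 and its adjusted p 0.9998. IL3RA also had an unadjusted limma p under 0.05 (0.0437), and the other 7 did not. KIT stood at -0.19 ± 0.14, with an interval of -0.49 to 0.12. CSF2RA, CSF2RB and IL6R stood at -0.0013 ± 0.07, 0.03 ± 0.08 and 0.02 ± 0.07, with intervals within -0.16 to 0.21, far from their values in AZA.

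Adding APR to AZA called 0 of the 9 genes, where 0% of all genes were called with limma and 1319 had an unadjusted p under 0.05. KIT (0.0252) was the 1 gene of the 9 with an unadjusted limma p under 0.05. Adding AZA to APR called 6 of the 9, where 20.7% of all genes were called: 3 higher (9.45% of all genes) and 3 lower (11.2%). FLT3 was 2.04-fold, KIT 3.61-fold and IL6R 1.99-fold lower in APR-AZA than in APR cells, and CSF2RA was 2.71-fold, CSF2RB 1.96-fold and FLT3LG 1.40-fold higher, each called by limma. Non-additivity, by how much the APR-AZA change departs from the APR change plus the AZA change, called 0 of the 9, where 0% of all genes were called with limma and 990 had an unadjusted p under 0.05. It was farthest from 0 for FLT3, at 0.36 ± 0.19 (log2, SE), with a 95% interval of -0.06 to 0.78. For KIT it was -0.17 ± 0.20, with an interval of -0.60 to 0.26, and for the others it lay between -0.12 and 0.27. For FLT3 and KIT, intervals of this width include a departure as large as the APR value of FLT3.

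The genes around the receptors were described through 7 lists, of which 101 of 111 entries were measured. Over all genes, 20.9% were called in AZA against NT, 9.79% higher and 11.1% lower. In APR-AZA against NT 22.3% were called, 10.4% higher and 11.9% lower. The counts of each list below stand beside these shares, were not tested against them and describe the listed genes only. Ligands had 1 of 7 called in AZA against NT, with a median log2 change of 0.14. The gene called was KITLG, stem cell factor, the ligand of KIT. Its log2 signal was 6.68, 6.66 and 6.55 in APR-AZA cells, 7.12, 6.57 and 6.47 in AZA cells, 4.78, 4.44 and 4.87 in APR cells, and 4.59, 4.43 and 4.76 in NT cells. KITLG was 4.10-fold higher in APR-AZA and 4.35-fold higher in AZA than in NT cells, at 2.04 ± 0.16 and 2.12 ± 0.16 (log2, SE, limma adjusted p = 9.13e-07 and 7.30e-07). So the ligand rose in the arrays in which its receptor KIT fell. KITLG averaged 4.60 in NT cells, below the array medians of 4.69 to 4.78, so its folds start from a low signal. CSF1, the ligand of CSF1R, was called in APR-AZA alone, 1.36-fold higher than in NT (limma adjusted p = 0.0251), and lost that call when APR-AZA replicate 1 (0.0698), 2 (0.0576) or 3 (0.0652) or NT replicate 2 (0.0951) or 3 (0.114) was left out, and without moderation (0.0658). Its log2 signal was low, on average 4.55 in APR-AZA and 4.10 in NT cells, below the array medians of 4.69 to 4.78.

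Sheddases and their partners had 3 of 5 called higher in AZA and the same count in APR-AZA. ADAM17, the protease that cuts IL6R and CSF1R from the surface, was 1.94-fold higher in APR-AZA and 1.90-fold higher in AZA than in NT cells (log2 0.95 ± 0.09 and 0.92 ± 0.09, limma adjusted p = 2.98e-06 and 4.36e-06). RHBDF2, which carries ADAM17 to the surface, was 1.42-fold higher in AZA (limma adjusted p = 0.0178), and ADAM10 1.22-fold (limma adjusted p = 0.0166). The call of RHBDF2 was lost without NT replicate 2 (0.0809) or 3 (0.0583), without AZA replicate 2 (0.0834) and without moderation (0.0559), and that of ADAM10 without NT replicate 2 (0.0674), AZA replicate 1 (0.0655) or 3 (0.0582) and with the compared groups alone (0.0566). The count of sheddases called in AZA was 1 when NT replicate 2 was left out.

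**Figure D3:**
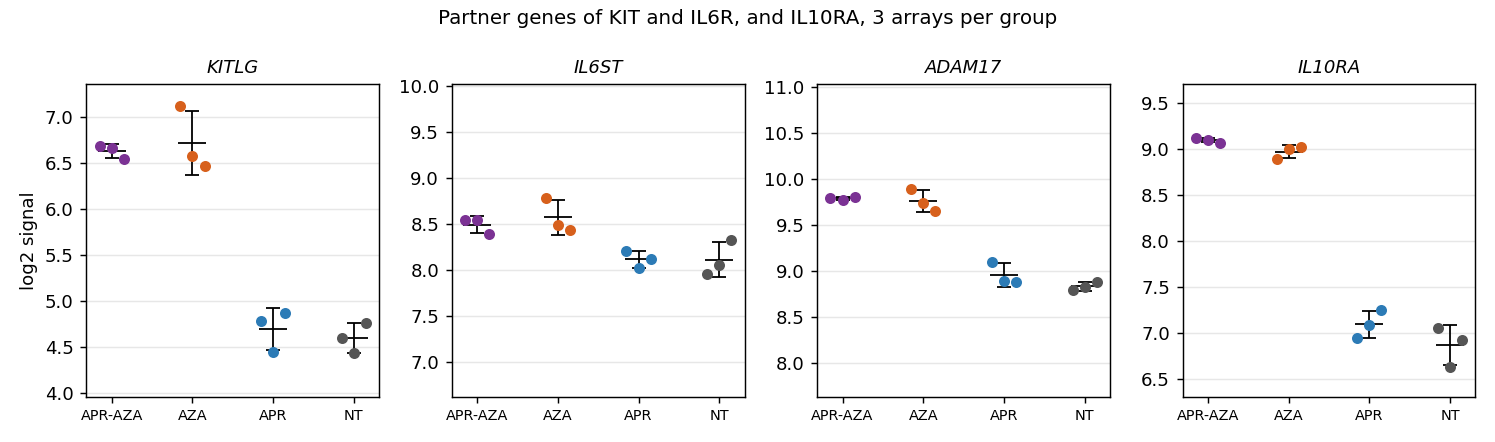
Log2 signal of KITLG (ligand of KIT), IL6ST (signalling partner of IL6R), ADAM17 (protease that cuts IL6R) and IL10RA on each array (points) with the group mean and SD over 3 arrays (bars), for APR-AZA, AZA, APR and NT cells from left to right. The 6 arrays with AZA lie above the 6 without it in each panel.

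Other receptors of these families had 3 of 19 called higher and 2 lower in AZA, with a median log2 change of 0.03, and the same counts in APR-AZA. IL10RA, which binds interleukin 10, was 4.66-fold higher in APR-AZA and 4.27-fold higher in AZA than in NT cells (log2 2.22 ± 0.11 and 2.10 ± 0.11, limma adjusted p = 1.37e-08 and 2.54e-08). IL7R of lymphoid progenitors was 2.46-fold and 2.42-fold lower (limma adjusted p = 0.000404 and 0.000507). IL4R was 1.40-fold and IL6ST 1.37-fold higher in AZA (limma adjusted p = 0.00416 and 0.0107). IL6ST thus moved opposite to IL6R, and its call was lost without NT replicate 1 (0.0505) or AZA replicate 1 (0.0522). The count called lower was 1 in AZA when any of NT replicates 1 and 3 and AZA replicates 2 and 3 was left out or the compared groups were fitted alone, and 1 in APR-AZA without APR-AZA replicate 3 or NT replicate 3. PDGFRA and PDGFRB, the remaining kinases of the class of FLT3 and KIT, stood at 0.05 ± 0.13 and -0.12 ± 0.11 in AZA and were not called.

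Signal transducers had 5 of 22 called higher and 1 lower in AZA, with a median of 0.17, and 9 higher and 1 lower in APR-AZA. GAB2, an adaptor that links KIT and the GM-CSF receptor to PI3 kinase and SHP2, was 3.99-fold higher in APR-AZA and 3.94-fold higher in AZA than in NT cells (limma adjusted p = 1.45e-06 and 1.77e-06). GAB2 averaged 4.55 in NT cells, below the array medians, so its folds too start from a low signal. The SRC-family kinase LYN, which acts below KIT and the GM-CSF receptor, was 1.92-fold and 1.90-fold higher (limma adjusted p = 6.31e-07 and 8.44e-07). The 1 transducer called lower was PIK3CD, a catalytic subunit of PI3 kinase, at -0.31 ± 0.08 in APR-AZA and -0.29 ± 0.08 in AZA, both against NT, and it was chosen after its value was seen (limma adjusted p = 0.0181 and 0.0272). With an array left out the count called lower ranged from 0 to 3 in AZA, being 0 without NT replicate 1 or 2 or AZA replicate 1 or 2 and in a fit of the compared groups alone, 3 with NT replicate 3 left out and 2 without AZA replicate 3. In APR-AZA it was 0 without APR-AZA replicate 3 or NT replicate 2, and 2 without NT replicate 3. STAT6, which IL4R activates, was 1.60-fold and JAK1 1.29-fold higher in AZA (limma adjusted p = 0.000546 and 0.00136).

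Brakes on receptor signalling moved both ways, with 7 of 19 called higher and 5 lower in AZA and 5 of each in APR-AZA. SLA, an adaptor that lowers receptor levels, was 1.80-fold lower in APR-AZA and 1.89-fold lower in AZA than in NT cells (limma adjusted p = 0.000114 and 6.07e-05). CISH, a feedback inhibitor that STAT5 induces, was 1.43-fold lower in AZA (limma adjusted p = 0.000917), while the docking inhibitor DOK2 was 1.40-fold and the phosphatase PTPRC 1.37-fold higher (limma adjusted p = 0.00895 and 0.00062). Without NT replicate 1 or NT replicate 2 the count called lower in AZA was 3, as with the compared groups alone, and without NT replicate 1 or APR-AZA replicate 3 that in APR-AZA was 3.

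STAT5 and cytokine response genes had 6 of 14 called higher and 2 lower in AZA, and 5 and 2 in APR-AZA, with a median of 0.21 in AZA. The repressor BCL6 was 2.57-fold higher in APR-AZA and 2.62-fold higher in AZA than in NT cells, and MYC was 2.56-fold and 2.40-fold lower (limma adjusted p between 5.69e-08 and 2.71e-07 in AZA). The survival kinase PIM2 was 2.26-fold lower and the immediate early factor EGR1 2.08-fold higher in AZA (limma adjusted p = 9.63e-06 and 7.98e-06). PIM1, a kinase of the same family that STAT5 induces, was 2.33-fold higher in APR-AZA than in APR cells (limma adjusted p = 0.000172). In those groups PIM2 averaged 6.74 and 7.68 (log2 signal). In AZA and NT cells PIM1 averaged 7.79 and 6.81, PIM2 6.61 and 7.78, and PIM3 7.66 and 7.29. PIM1 was thus higher and PIM2 lower with AZA in both pairs of groups.

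Transcription factors of myeloid receptor genes had 2 of 15 called higher and 8 lower in AZA, with a median log2 change of -0.30. Counts in APR-AZA were 2 and 7, with a median of -0.18. MYB, a progenitor factor, was 10.2-fold lower in APR-AZA and 8.68-fold lower in AZA than in NT cells, and the repressor GFI1 4.18-fold and 4.73-fold lower (limma adjusted p between 4.50e-10 and 3.19e-08). IRF8, a factor of the monocyte lineage, was 1.72-fold lower and CEBPB, which rises in mature myeloid cells, 2.08-fold higher in AZA (limma adjusted p = 2.95e-05 and 1.50e-06). Some of these genes, MYB, GFI1 and MYC among them, were known to change in these data when the lists were written.

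**Figure D4:**
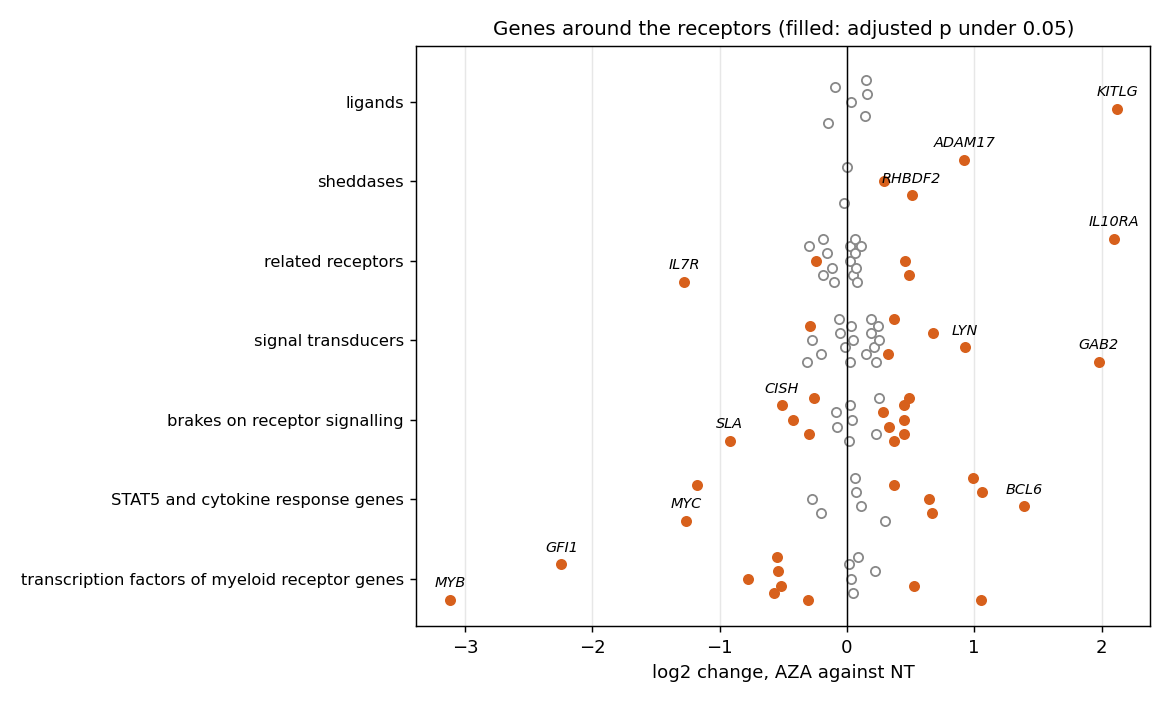
Log2 change of each measured gene of the 7 lists in AZA against NT cells, with filled points for genes that passed the test and names for the genes of each list with the largest changes among these. KITLG, IL10RA and GAB2 stand near 2 on the right, and MYB and GFI1 beyond -2 on the left.

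APR alone, APR on top of AZA and non-additivity called 0 genes of each of the 7 lists with limma. Over all genes they called 0.00356%, 0% and 0%, so the counts of 0 are not particular to the lists. In APR against NT the value farthest from 0 in each list was -0.17 ± 0.11 for IL34, 0.22 ± 0.11 for IL10RA, -0.23 ± 0.11 for JAK3, 0.17 ± 0.09 for CISH, -0.24 ± 0.08 for MYC, -0.20 ± 0.11 for MYB and 0.12 ± 0.09 for ADAM17 (log2, SE). In APR-AZA against AZA the farthest of all was CEBPE, a factor of granule formation, at 0.39 ± 0.10 (limma adjusted p = 0.986).

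The genes with patterns most like FLT3, KIT and CSF2RA were found by Pearson's r of log2 signals over the 12 arrays, which form 4 groups of 3 and mostly split by AZA, so that r is a description of shared profiles. Nearest to FLT3 were SRGN (r = 0.990), LCLAT1 (0.989) and ZMPSTE24 (0.987), and the most opposite was LPAR2 (-0.991). They encode a granule proteoglycan, a cardiolipin acyltransferase, the prelamin A protease and a lysophosphatidic acid receptor. Each had its APR mean between its NT mean and its AZA mean, as FLT3 did. Nearest to KIT were WWC1 (0.994), a scaffold of Hippo signalling, AFF3 (0.993), a nuclear elongation factor, and BCL11A (0.993), a zinc finger repressor of progenitors, and the most opposite was the membrane semaphorin SEMA7A (-0.990). BCL11A was 3.20-fold lower in AZA than in NT cells (limma adjusted p = 4.73e-08), close to the 3.21-fold of KIT. Nearest to CSF2RA were PLIN2 (0.998), a coat protein of lipid droplets, THBD (0.997), the thrombin receptor thrombomodulin, and HAVCR2 (0.996), the checkpoint receptor TIM-3. The most opposite was FKBP5 (-0.998), a co-chaperone of steroid receptors. HAVCR2 was 7.32-fold and PLIN2 4.48-fold higher in AZA than in NT cells (limma adjusted p = 2.31e-10 and 8.24e-10).

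Among the 9 genes themselves, FLT3 and KIT correlated at 0.948, CSF2RA and CSF2RB at 0.982, and KIT and CSF2RA at -0.983 over the 12 arrays. IL6R ran with KIT (0.965) and against CSF2RA (-0.992). Here too the arrays mostly split by AZA, so these values restate the changes with AZA and describe shared profiles. CSF3R stayed below 0.5 in size with each of the other 8, its largest being -0.476 with FLT3.

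**Figure D5:**
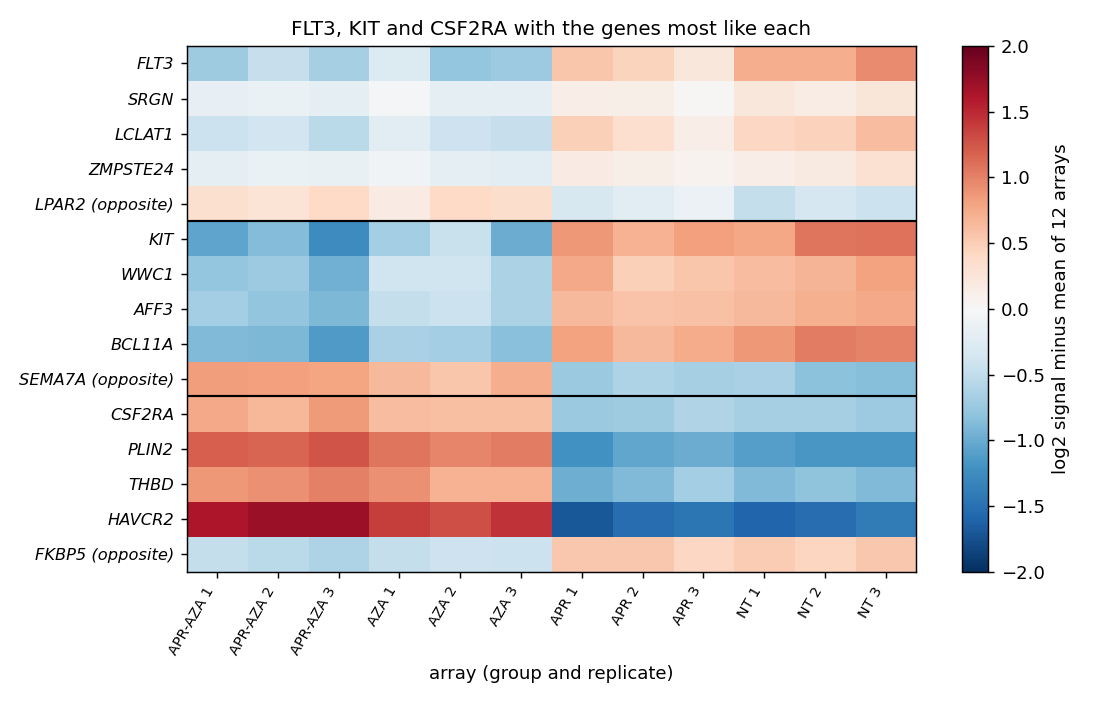
Log2 signal minus the gene's mean over the 12 arrays (colour scale) for FLT3, KIT and CSF2RA, each followed by the 3 genes with the highest correlation to it and the 1 with the lowest (marked opposite). Columns are the APR-AZA, AZA, APR and NT arrays, and colours change sign between arrays with and without AZA, while FLT3 is paler in APR than in NT.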

How the data were processed

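Gene expression was measured on Affymetrix arrays of 12 samples. Per the labels, total RNA was converted to biotin-labelled sense-strand DNA with a whole-transcript kit. The deposited values are on the log2 scale, 1 per gene and array, and were made with RMA and Partek per the submitters' processing notes. RMA sets arrays to a common distribution, which would remove a shift of most genes, and compresses low signals. The sources used here name neither a chip definition nor a genome build. Arrays have no counting depth, so the number of arrays limits the precision.

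Of 29413 rows, 28129 had 1 symbol, 0 several and 1284 none. Repeated symbols kept the row with the highest mean, which left 28125 genes, with no filter. No pair of arrays shared more than 0.0952% of identical values. Whether replicates are separate cultures is not in the labels, so the p-values reflect array-to-array spread that may be technical.

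With lmFit and eBayes of limma 3.58.1 (R 4.3.3), the model fitted 1 mean per group over all 12 arrays, with 8 residual degrees of freedom and Benjamini-Hochberg adjustment over all genes. Genes with an adjusted p under 0.05 are named as called. Errors are moderated standard errors, and intervals are 95%. The fit was tested on simulated data with independent noise on each array and changes put into AZA only. Such data lack deviations shared between arrays, so the test does not cover them. Replicate numbers gave no sign of pairing. In their deviations from group means, 3 of 18 same-numbered pairs correlated above 0.1, against 9 of 36 differently numbered pairs. The median r was -0.04 and 0.02, so no pairing by number was modelled in the main fit. The highest r, 0.28, was between APR 2 and NT 1. Among pairs above 0.1, some joined APR 1, NT 3 and AZA 1. Others joined APR 2, NT 1, AZA 3 and APR-AZA 2. The rest joined APR 3, NT 2, AZA 2 and APR-AZA 3. Deviations were thus shared between arrays of mostly different numbers. Neither the main fit nor the replicate block, set by number, modelled this, and its cause was not tested. The genes and lists were chosen with earlier results of these data known. The named genes are all 9, the called genes of each list with the largest changes (up to 4 in AZA against NT, up to 2 elsewhere, or the 1 farthest from 0 where none was called, given in full for APR and otherwise by the largest), and the 3 most and 1 least correlated with FLT3, KIT and CSF2RA. Genes on the lists without a matching symbol were not analysed here. Promoter sequences and gene order are RefSeq's, assembly GRCh38.p14. The alternatives left out the dimmest 30% of genes or used repeated quantile normalization, median centring, trended and robust variance, no moderation, the compared groups alone, a replicate block, array weights, the mean of repeated rows and leaving out each array.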

Additional observations from a re-analysis of the deposited data

Results flagged for a closer look

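The group mean of FLT3LG moved in opposite directions with APR in the absence and in the presence of AZA, though the APR-AZA and AZA arrays overlapped. Against the NT mean the 3 APR arrays lay 0.10 to 0.23 below on the log2 scale (mean -0.15), and against the AZA mean the 3 APR-AZA arrays lay 0.08 to 0.18 above (mean 0.12). The difference between these changes was 0.27 ± 0.18 (log2, SE, n = 3 per group), which did not pass the test (limma adjusted p = 0.9998, 95% interval -0.11 to 0.65). AZA replicate 2, at 5.50, lay below the other AZA arrays at 5.97 and 6.10, and without it the change with APR on top of AZA was -0.06.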

How the results depend on the processing

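The counts of the 9 genes called higher and lower differed from those given, by 1 gene each time, in 3 of 106 checks under other settings and 2 of 84 with an array left out, through the calls gained by CSF1R, FLT3LG and IL3RA given above, and FLT3, KIT, CSF2RA, CSF2RB and IL6R kept direction and call in both AZA comparisons with NT under each. Values near 0 changed sign: CSF2RA in APR against NT to 0.00040 with repeated quantile normalization, and FLT3 in APR-AZA against AZA to 0.018 with array weights. With an array left out, the ranges that crossed 0 were, in APR against NT, -0.12 to 0.015 for CSF1R, -0.044 to 0.028 for CSF2RA, -0.030 to 0.070 for CSF2RB, -0.0086 to 0.20 for CSF3R and -0.011 to 0.061 for IL6R. In APR-AZA against AZA they were -0.12 to 0.14 for FLT3, -0.060 to 0.24 for FLT3LG, -0.024 to 0.0084 for IL3RA and -0.050 to 0.00064 for IL6R. CSF3R ran from -0.021 to 0.19 in APR-AZA against APR, and non-additivity from -0.052 to 0.088 for CSF1R and -0.082 to 0.13 for CSF3R. The count of all genes called in APR against NT was 1, but 2 with dim genes left out, 0 without moderation, 0 with the compared groups alone and 0 to 2 with an array left out, and the cause was not tested. With the replicate block that count was 0, the count of related receptors called lower in AZA was 1 in place of 2, RHBDF2 lost its call in APR-AZA against APR (limma adjusted p = 0.061), and no call of the 9 genes changed. Counts over the 7 lists moved by over 1.5 times in 5 of 252 checks under other settings and 25 of 168 with an array left out. Low signals are compressed, so folds of dim genes are understated.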

Other observations

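The chromosomal neighbours of the 9 genes were looked at after the values were seen, taking the nearest protein-coding gene on each side in RefSeq's gene order. Next to KIT lie the related kinase genes PDGFRA and KDR, which stood at 0.05 ± 0.13 and -0.02 ± 0.09 in AZA against NT (log2, SE) and were not called. URAD and PAN3 beside FLT3 stood at 0.18 ± 0.12 and 0.21 ± 0.08, and ATP8B2 and SHE beside IL6R at -0.06 ± 0.09 and -0.01 ± 0.13, none of them called. CRLF2, a further cytokine receptor chain on the other side of CSF2RA from IL3RA, stood at 0.07 ± 0.09. ALDH16A1 and RPL13A beside FLT3LG stood at 0.04 ± 0.18 and -0.02 ± 0.26, and neither was called. HMGXB3 and PDGFRB beside CSF1R stood at -0.03 ± 0.08 and -0.12 ± 0.11 and were not called either.

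Some neighbours were called in AZA against NT, where 20.9% of all genes were called. NCF4 beside CSF2RB, a subunit of the phagocyte NADPH oxidase, was 1.81 ± 0.09 higher on the log2 scale (limma adjusted p = 1.15e-08). CIMIP4 on the other side of CSF2RB stood at -0.02 ± 0.12. Beside CSF3R, which was not called, MRPS15 stood at -0.45 ± 0.08 (limma adjusted p = 0.00148) and GRIK3 at 0.01 ± 0.12. IL3RA, not called, lies between CSF2RA, which was called higher, and SLC25A6, which was not analysed.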
